A study of Mus musculus with 6 samples.

Results

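The cytosolic ribosomal protein genes encode the proteins of the large (Rpl) and small (Rps) ribosomal subunits. They were followed here in mouse retinas taken at postnatal day 4 (P4). Members were the probe sets paired with 1 gene symbol that starts with Rpl or Rps and a number, or with Rplp, without the Rps6k kinases and without pseudogene symbols ending in -ps. This gave 98 of 22626 probe sets that are not controls, and 47 of 12393 named genes, 26 of the large and 21 of the small subunit. Retinas of 3 wildtype mice and of 3 mice labelled as nhlh2 knockout, which lack a basic helix-loop-helix transcription factor of neurons, were each measured on 1 Affymetrix array. All 6 mice carried a mixed C57/129 background, were sampled at the same age, and wildtype and knockout mice of the same number were littermates. The array held no probe set paired with Nhlh2 alone in the tables used here, so the loss of the targeted transcript was not checked. The allele of the knockout and the number of retinas per array are not given in the sources used here.

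A ribosome holds 1 copy of nearly every ribosomal protein, with the acidic stalk proteins Rplp1 and Rplp2 as the known exception. The messages of these genes are among the most abundant of any dividing or growing cell. Many begin with a run of pyrimidines, the 5′ terminal oligopyrimidine tract, through which growth signals set their translation. Most have processed pseudogenes, intronless copies scattered over the genome, so short probes often match more than 1 sequence. The suffix of an Affymetrix probe set records this. A plain _at set has probes for 1 transcript, an _a_at set covers several transcripts of a gene, an _s_at set is shared by several genes or transcripts, and an _x_at set has some probes that also match other sequences.

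The signal of a probe set depends on its own probes as well as on the RNA, so levels of different genes below are levels of signal and not of transcript number. Signals are MAS 5.0 intensities on a linear scale, and the arrays were not scaled to each other. The median signal of all probe sets was 76.1, 95.5 and 56.9 in wildtype 1, 2 and 3, and 68.4, 9.0 and 51.3 in knockout 1, 2 and 3. The array of knockout 2 stood apart from the other 5. Its Actb control probe sets gave a 3′ to 5′ signal ratio of 274, against 1.38 to 1.56 elsewhere, and its Gapdh ratio was 15.6 against 0.698 to 0.838. Markers of the retina were high in the other 5 arrays, with Nrl, a factor of rod photoreceptors, at 4366 to 6897. Lens crystallins were high in wildtype 1 alone, where Cryaa reached 2567 against 1.20 to 3.90 in the others.

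The start of 23 of the 41 member genes with a promoter in RefSeq (56.1%) held a run of at least 8 pyrimidines within 25 bases of the annotated start on the coding strand, against 22.3% of all genes. The motif CCGGAAG, on either strand and anywhere in the 300 bases searched, occurred in 20 of the 41 genes (48.8%) and in 9.93% of all genes. These are matches of letters and not measured sites. The following stretches of 30 bases, 5′ to 3′ on the coding strand of GRCm38.p6, show the longest run in capitals for some genes whose values recur below: Rps9, with 1 probe set that split by litter, Rplp2, which kept much of its signal in knockout 2, Rpl35, whose probe sets kept very different shares, Rpl7a and Rps7, which kept little, Rps18, whose probe sets lay farthest apart, and Rpl22, with the smallest p in the knockout comparison. Rps7 and Rpl22 stand for the genes without a run of 8: the longest run had 5 bases in Rps7, Rpl27 and Rps28, 4 and 5 at the annotated starts of Rpl22, 3 in Rpl41, and 7 in Rplp0 and Rps15.
Rps9, chr7:3704029-3704058, plus strand: gccttgTCTCTCTTTgtctcgggcctgagt
Rplp2, chr7:141447640-141447669, plus strand: tcagcgTCTTCCTTTCgccgccggacgccg
Rpl7a, chr2:26910787-26910816, plus strand: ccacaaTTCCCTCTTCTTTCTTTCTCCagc
Rpl35, chr2:39005115-39005144, minus strand: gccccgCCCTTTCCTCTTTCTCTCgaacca
Rps18, chr17:33955644-33955673, minus strand: cttccgCTCTCTCTTCCacaggaggcctac
Rps7, chr12:28635944-28635973, minus strand: gaagagCTTCCggtttccacccacctactt
Rpl22, chr4:152324420-152324449, plus strand: gcgctgCTTCTggaatgttccagctcccac

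Ribosomal protein transcripts were among the brightest of the wildtype retina. Of the 100 brightest probe sets of each array, 29, 29 and 26 were members in wildtype 1, 2 and 3. Members made up 0.433% of the probe sets and held 5.34%, 4.99% and 7.34% of the summed signal. The median gene lay 4.93, 4.93 and 5.74 above the array's median on the log2 scale. Of the 98 member probe sets, 66, 68 and 67 had a signal over 1000.

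The highest gene was Rps29, a small zinc-binding protein of the small subunit, with an average of 10088 over its 3 probe sets. Its brightest probe set had 9379, 9922 and 14369 in wildtype 1, 2 and 3, and in wildtype 3 it was the brightest of the whole array. After Rps29 came Rps3a1 (9348), Rpl38 (9071), Rps28 (8621) and Rps14 (8563), all structural proteins of their subunits. The next were Rplp2 (8083), Rpl7a (7971), Rps7 (7598), Rpl4 (6790) and Rps2 (6500). These averages are geometric means over the gene's probe sets and the 3 wildtype mice. Neighbours such as the second and the third did not differ beyond the spread between mice: Rps3a1 had 9358 ± 532 (SD, n = 3 mice) and Rpl38 had 9257 ± 2328 (SD, n = 3).

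The stalk of the large subunit, which binds the translation factors, was represented by 2 genes. Rplp2 had 7081, 7243 and 10295 in wildtype 1, 2 and 3, and Rplp0, the base of the stalk, had 5115, 6146 and 5825. Rplp1, the partner of Rplp2, was not analysed here, and neither were Rpl3 and Rpl10, since no probe set was paired with these symbols alone.

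At the low end stood genes of different kinds. Rpl39l, a paralogue of Rpl39 best known from testis, had 0.7, 7.8 and 2.2, and Rpl3l, a paralogue of Rpl3 found in striated muscle, had 2.5, 14.7 and 3.3. Both lay far under the median of each array. The other low genes are core proteins of every ribosome: Rps6, the target of the S6 kinases, averaged 34.2, Rpl27a 48.5, Rps27 54.4, Rpl14 73.8, Rpl12 77.4, Rps25 141 and Rpl39 150. Each of these 7 core genes was measured by plain _at probe sets only. Rps4x, an X-linked protein of the small subunit, averaged 193, from 1 probe set at 7827 ± 1321 and 1 at 4.03 ± 1.56 (SD, n = 3 mice).

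**Figure D1:**
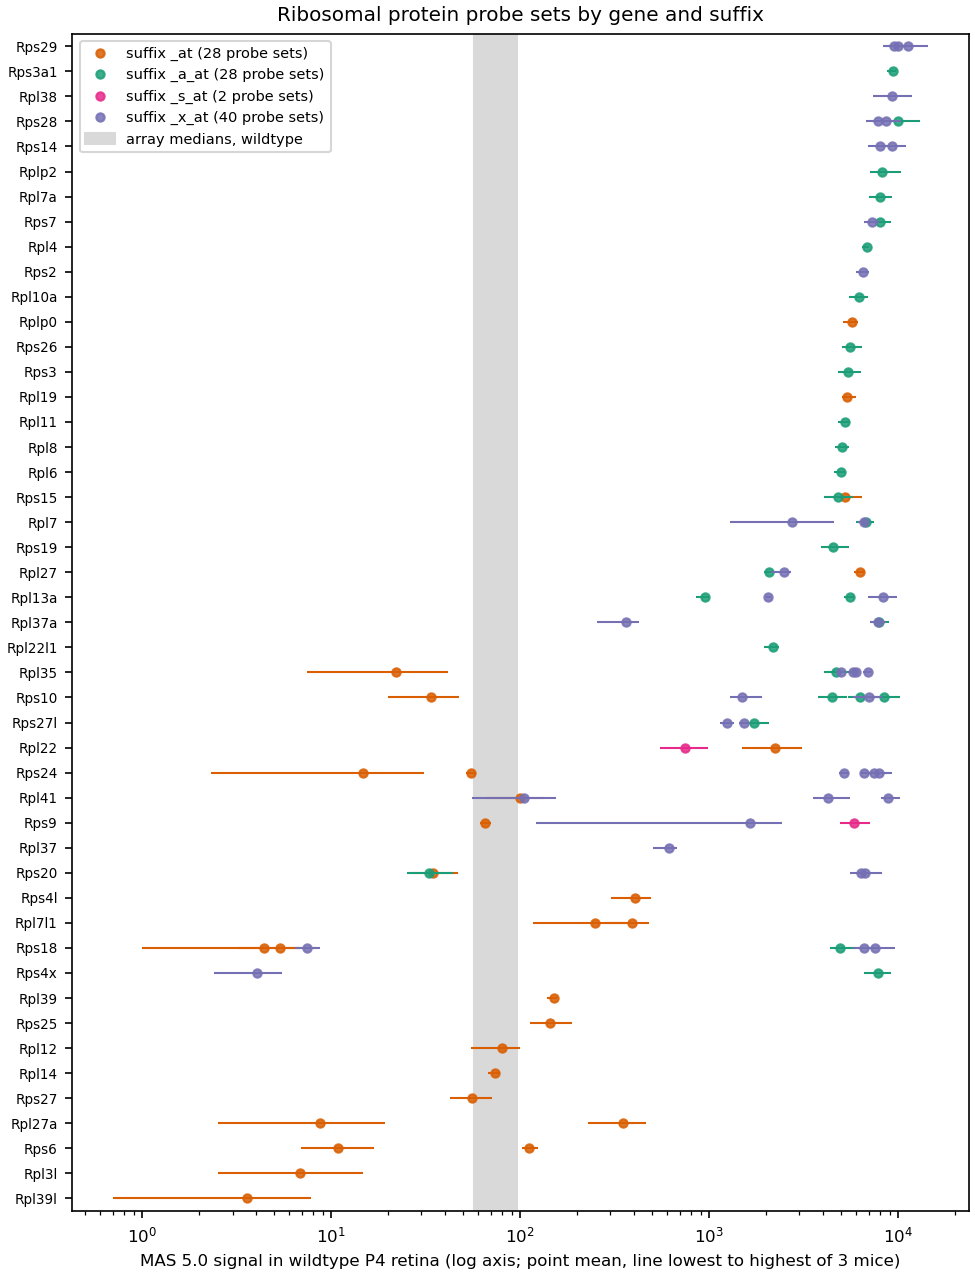
MAS 5.0 signal (log axis) of the 98 member probe sets in the 3 wildtype mice, 1 row per gene in the order of its average; points are means, lines run from the lowest to the highest mouse, colours give the suffix and the grey band spans the 3 array medians. Plain _at probe sets make up most of the low end, and genes such as Rps18 and Rps4x have probe sets at both ends.

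Low signals mostly followed the suffix of the probe set. Members comprised 28 _at (28.6%), 28 _a_at, 2 _s_at and 40 _x_at probe sets, whereas 69.2% of all 1-symbol probe sets were plain _at. In wildtype 1, 2 and 3 the plain members had medians of 64.9, 87.5 and 76.1, which is near the median of the array. The _a_at members had 4929, 5433 and 6132, and the _x_at members 5863, 6696 and 6905. Over 1000 were 5 of the 28 plain members in each wildtype array, but 26 to 27 of the 28 _a_at and 34 to 35 of the 40 _x_at members.

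The 5 plain probe sets over 1000 belonged to Rpl19, Rpl22, Rpl27, Rplp0 and Rps15. Rpl19, a core protein of the large subunit with this probe set alone, had 5057, 5119 and 5977. A share of 17.9% over 1000 among plain members compares with 2.98% to 5.09% of all plain probe sets in the 3 arrays. Plain minus suffixed medians on the log2 scale were -6.40, -6.12 and -6.40 for members, against -0.99, -1.0 and -0.97 for all 1-symbol probe sets.

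**Figure D2:**
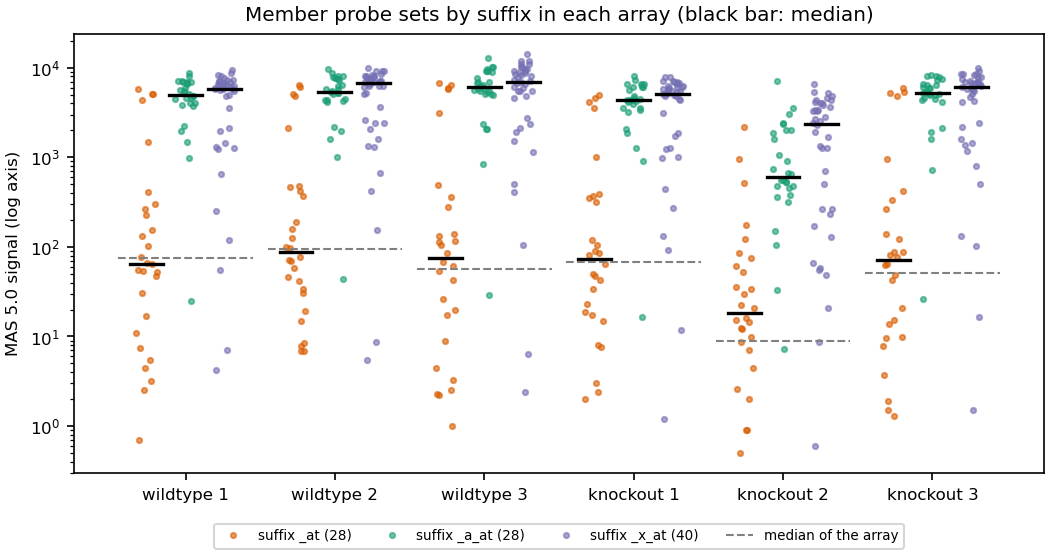
MAS 5.0 signal (log axis) of the plain _at, _a_at and _x_at members in each of the 6 arrays; points are probe sets, black bars their medians and dashed lines the median of the array. Plain members centre near the array's median in the wildtype mice, and the other suffixes have medians of 4929 to 6905 there.

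The same split appeared within genes. In the 10 genes with both kinds, plain minus suffixed signal had a median of -4.54, -5.19 and -5.71 (log2) in the 3 wildtype arrays, and the plain probe sets were lower in 7 of 10 genes in each. Over all 2585 genes with both kinds the medians were -0.42, -0.45 and -0.38, with plain lower in 58.4% to 60.9%. The 3 member genes that ran the other way were Rpl22, Rpl27 and Rps15, which encodes a small subunit protein. In Rpl27 the plain probe set had 5802, 6365 and 6683, and the _a_at probe set 1958, 2202 and 2066.

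Of the 22 genes with several probe sets, 12 had probe sets that differed over 8-fold and 7 had probe sets within 2-fold. Rps18 spanned 1600-fold: 3 of its 6 probe sets had 4365 to 9661 in the wildtype mice, and the other 3 had 1.0 to 8.7. Rps4x spanned 1595-fold, Rps24 721-fold, Rpl35 371-fold and Rps10 253-fold. The low probe sets of Rps18 included a suffixed one, 1450390_x_at, with 7.1, 8.7 and 6.4 in wildtype 1, 2 and 3. The low Rps4x probe set was an _x_at as well, with 4.2, 5.5 and 2.4, and Rps4x had no plain probe set. In each of Rps24, Rpl35 and Rps10 the low probe sets were plain and the suffixed ones lay over 1000. In Rps20 both a plain and an _a_at probe set were under 50, while its _x_at probe sets had 5543 to 8252.

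Evenness over genes differed with the suffixes counted, which also changed the set of genes. With the highest probe set of each gene, the SD of log2 signal averaged 2.94 over the wildtype arrays, against 2.97 with all probe sets. Over all 47 genes the SD of log2 signal was 3.05, 2.72 and 3.13 in wildtype 1, 2 and 3. Among genes above the array's median it was 2.00, 2.00 and 2.25 for members, against 1.22, 1.21 and 1.31 for all genes. With suffixed probe sets alone, 34 member genes had an SD of 1.34, 1.25 and 1.44, and the 13 genes with plain probe sets only dropped out. The mitochondrial ribosomal proteins, whose 74 genes are mostly read by plain probe sets (61.4%), had 1.09, 1.03 and 1.23. Their median gene had a signal of 301, 329 and 259.

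Paralogues were measured beside several core genes. Rpl22l1, the paralogue of Rpl22, had 2260, 1959 and 2335 in the wildtype arrays, and Rpl22 itself 1488, 2131 and 3094 with its plain probe set. Rps27l, a paralogue of Rps27 induced by p53, had 1144 to 2078 over its 3 probe sets, above the plain Rps27 probe set at 42.6 to 71.0. A probe set shared by Rps27 and Rps27rt, which is no member because it has 2 symbols, had 5399, 5483 and 6294. Rpl7l1 had 116 to 477, and Rpl7 had 5968 to 7410 with 2 of its 3 probe sets. Rps4l had 301, 426 and 493. In all, 102 probe sets name a ribosomal protein among several symbols and were not counted as members. Of these, 73.5% to 75.5% were over 1000 in the wildtype arrays.

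The SD of the normalized log2 signal between the 3 wildtype mice had a median of 0.16 over 83 members and 0.23 over 11610 probe sets. It was 0.15 in the suffixed and 0.25 in the plain members. The spread of suffixed members was thus smaller than that of the typical tested probe set, and that of plain members was not, as a description with no test. Suffixed members were also brighter than the typical tested probe set, and probe sets of like brightness were not compared.

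For the knockout comparison, signals were quantile normalized and fitted with limma, and 83 members of 44 genes passed the filter, which asked that 3 or more of the 6 arrays show a signal over their own median. No member changed past the threshold: limma called 0 of 83 members and 0 of 11610 probe sets (0%) at an adjusted p under 0.05. At an unadjusted p under 0.05 it called 1 member of 83 (1.20%) and 14 of all probe sets (0.121%). Even with no difference at all, a threshold of 0.05 should pass a larger share of all probe sets than 0.121%. The fit, which keeps knockout 2, was thus strict, and its 0 calls do not show that nothing changed. With an intensity trend in the variance limma called 0 members too. Without knockout 2 the adjusted count was 0 again, and the unadjusted counts were 2 of 81 members (2.47%) and 92 of 11324 probe sets (0.812%). The median member difference, knockout minus wildtype, was -0.04 on the log2 scale, with 37 of 83 higher, against -0.11 over all. This direction flipped with the scaling: at the 75th percentile of each array it was 0.50 with 65 of 83 higher, and -0.03 over all. Without knockout 2 the normalized median was 0.03, against 0.00 over all. In bulk tissue, a change in the share of a cell type and a change in RNA per cell cannot be told apart.

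The smallest p among members was that of Rpl22, a large subunit protein that binds RNA outside the ribosome as well. Its plain probe set 1416603_at had 1488, 2131 and 3094 in wildtype 1, 2 and 3 and 998, 61.1 and 948 in knockout 1, 2 and 3. Each knockout signal was below each wildtype signal, but the difference did not pass the adjusted threshold: limma gave -1.23 (SE 0.45) on the normalized log2 scale, with an adjusted p of 0.742. Without knockout 2 it was -0.85 (SE 0.33), limma adjusted p = 1.0. The second Rpl22 probe set, an _s_at, had 698, 982 and 546 in the wildtype and 667, 47.4 and 351 in the knockout mice. Its difference between littermates was 0.07 in pair 1, -0.68 in pair 2 and -0.53 in pair 3, against -0.51, -1.66 and -1.52 for the plain one. The 3 differences of the _s_at probe set did not all go one way.

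Rps25, a small subunit protein used at viral internal entry sites, turned its direction with 1 array. It had 131, 188 and 113 in the wildtype and 81.9, 52.7 and 64.9 in the knockout mice. Its normalized difference was 0.27 (SE 0.74) with all arrays and -0.63 (SE 0.17) without knockout 2, limma adjusted p = 0.864 and 1.0. After Rpl22, the smallest p of members that were lower belonged to the Rpl7 probe set 1426163_x_at (-1.07), both Rps7 probe sets (-0.76 and -0.94) and the other Rpl22 probe set (-0.38). Of those that were higher, they belonged to Rpl14 (0.87), Rpl41, which encodes a very short peptide (1.24), Rps6 (0.74), Rps15 (0.47) and Rpl35 (0.39). None of these passed.

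On the normalized scale all 3 knockout arrays lay below all 3 wildtype arrays in 5 members (6.02%), against 3.31% of all tested probe sets. These were Rpl22, Rps9 1433689_s_at, Rps14 1436586_x_at and 2 probe sets of Rps29. All 3 lay above in 4 members (4.82%), against 2.88% of all, namely 1 probe set each of Rpl14, Rpl27, Rpl35 and Rpl37a. For Rps14 1436586_x_at the littermate differences were -0.08, -0.14 and -0.10, and for Rps29 1438859_x_at they were -0.13, -0.15 and -0.48.

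Littermates were also set side by side, as single differences with no replicate. In pair 1, members had a median difference of -0.02 (SD over probe sets 0.23), and 0 of 83 differed over 2-fold, against 0.457% of all. In pair 3 the median was 0.01 (SD 0.44), and 3 of 83 (3.61%) differed over 2-fold, against 1.37% of all. In pair 2, which holds the array of knockout 2, the median was -0.01 (SD 1.24), and 30 of 83 (36.1%) differed over 2-fold, against 59.9% of all. The medians over all tested probe sets were 0.01, -0.32 and 0.00 in pairs 1, 2 and 3. The member medians of pairs 2 and 3 changed size and direction with the scaling. Centred at the 75th percentile they were 1.83 and -0.17, with median centring 1.27 and -0.12, and as deposited -2.0 and -0.27.

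The 3 members over 2-fold in pair 3 were all lower in the knockout, and no other probe set of the same genes differed over 2-fold there. They were Rpl22 1416603_at (-1.52), Rpl7 1426163_x_at (-2.26) and Rpl37a 1416218_x_at (-1.78). The Rpl7 probe set had 1282, 2410 and 4548 in the wildtype and 1230, 130 and 807 in the knockout mice. The other Rpl7 probe sets differed by 0.09 and 0.10 in pair 3, the other Rpl37a probe sets by 0.14 and 0.42, and the other Rpl22 probe set by -0.53, the same way as its plain one.

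**Figure D3:**
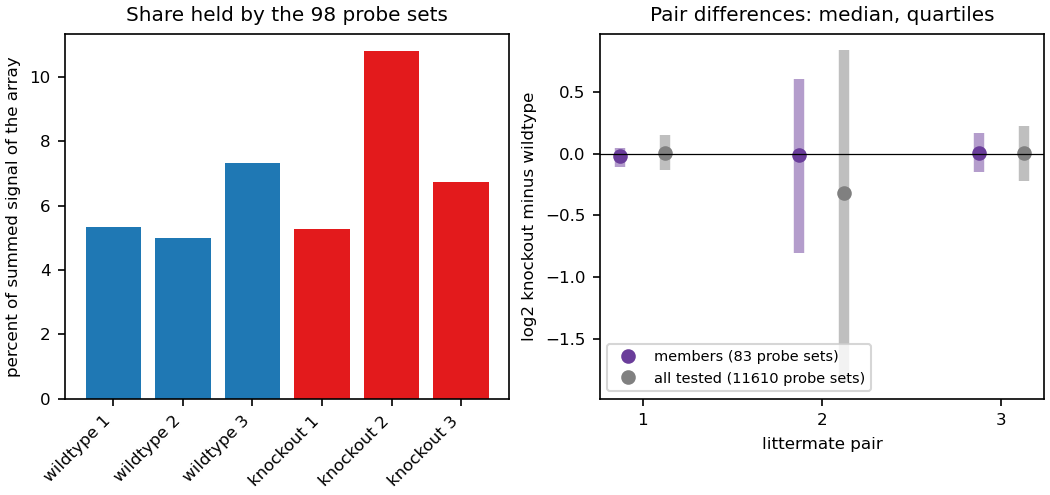
Left, percent of the summed signal of each array held by the 98 member probe sets (blue wildtype, red knockout); right, log2 knockout minus wildtype after quantile normalization in each littermate pair, with points for medians and bars from the first to the third quartile. Shares of littermates 1 and 3 are alike, knockout 2 holds 10.8%, and its pair has the widest differences.

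The share of summed signal held by members followed the litter in pairs 1 and 3. It was 5.34% and 5.26% in wildtype 1 and knockout 1, and 7.34% and 6.74% in wildtype 3 and knockout 3. Wildtype 2 had 4.99% and knockout 2 had 10.8%. The median of suffixed members lay 6.19 and 6.14 above the array's median (log2) in pair 1, 6.83 and 6.77 in pair 3, and 6.0 and 7.01 in pair 2. Both measures were higher in pair 3 than in pair 1 for both genotypes. No test was made with these few arrays. Summed signals of markers of other cell types, as deposited, were lower in pair 3 than in pair 1 for both genotypes in 3 lists, as were the array medians. The sum over the 8 retina markers went the other way, with 17561 and 16322 in pair 1 and 21301 and 16846 in pair 3. The single markers did not agree. Nrl, Neurod1 and Rcvrn were higher in pair 3 for both genotypes, Crx, Otx2, Pax6 and Tfap2b were lower, and Isl1 went both ways. The 4 microglia markers summed to 536 and 417 in wildtype 1 and knockout 1 and to 274.8 and 284 in wildtype 3 and knockout 3. The 4 vessel markers summed to 1006 and 925 in pair 1 and to 574 and 558 in pair 3. Nearly all of this was Kdr, with 965 and 876 in pair 1 and 508 and 517 in pair 3. Pecam1, Cdh5 and Tie1 were above the median of no array. Cdh5 went the other way, with 13.1 and 14.2 in pair 1 and 49.7 and 21.9 in pair 3. The 4 pigment epithelium markers summed to 2094 and 1344 in pair 1 and to 938 and 1222 in pair 3, and so differed little between the knockout mice. The 2 blood markers went both ways, with 35.8 and 17.5 in pair 1 and 24.5 and 59.6 in pair 3. Their part in the difference between litters was not tested.

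Knockout 2 had lost most of its signal, and ribosomal proteins had kept more of theirs than bright probe sets as a whole, in this single array. Of the 66 members whose geometric mean over the other 5 arrays was above 1000, the signal in knockout 2 was a median of 27.0% of that mean. All 1376 probe sets above 1000 had a median of 8.08%. The comparison was not matched for suffix or for brightness above 1000. Among the 66 members, the median was 37.7% in 34 _x_at, 13.3% in 26 _a_at and 9.84% in 5 plain probe sets. Under 10% were 16 of the 66 members (24.2%), against 54.9% of all, and over 50% were 15 (22.7%), against 9.52%. In the same 66 members, knockout 1 had 57.1% to 99.1% of the mean of the other arrays with knockout 2 left out, and knockout 3 had 39.6% to 131%. The 3′ to 5′ ratio of Actb in knockout 2 (274) moved with this loss, and its part was not tested.

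Members kept from 1.76% to 93.4% of their signal there. Rplp2 had 7175 in knockout 2, against 6153 to 10295 in the other arrays, and so lay within their range. Rpl41 kept 87.0% and 50.5% with its bright probe sets, and Rpl38 63.4%. Rpl35 kept 68.4% to 77.1% with 3 of its bright probe sets, but 11.03% and 27.4% with the other two. Rps20 kept 57.3% and 69.3%.

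At the other end, Rps27l kept 1.76% to 3.88% over 3 probe sets, Rps2 3.80%, Rpl7a 4.18% and Rpl22l1 5.12%. Rps7 kept 2.56% and 4.89%, with 6624, 7912 and 7228 in the wildtype arrays and 6145, 173 and 6083 in the knockout arrays for its _x_at probe set. Rplp0 kept 9.84%, although it and Rplp2 belong to the same stalk. Rpl4 kept 8.23%, Rps3a1 10.3% and Rpl11, which also binds Mdm2, 10.5%.

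Probe sets of 1 gene kept different shares. Rpl13a, a large subunit protein also known from translational silencing in immune cells, kept 16.9%, 20.3%, 26.5% and 88.0% with its 4 probe sets, the first of which averaged below 1000. Rpl27 kept 2.06%, 21.9% and 31.1%, Rps18 4.25%, 11.1% and 24.9%, and Rps15 20.0% and 65.1%. By suffix, medians were 13.3% for _a_at, 37.7% for _x_at and 9.84% for the 5 plain members. Rpsa, a small subunit protein whose symbol lies outside the rule, had 8606 in knockout 2 and 4513 to 6700 in the others. Fau, whose product is cut to give a small subunit protein, had 2108 against 3603 to 5054.

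**Figure D4:**
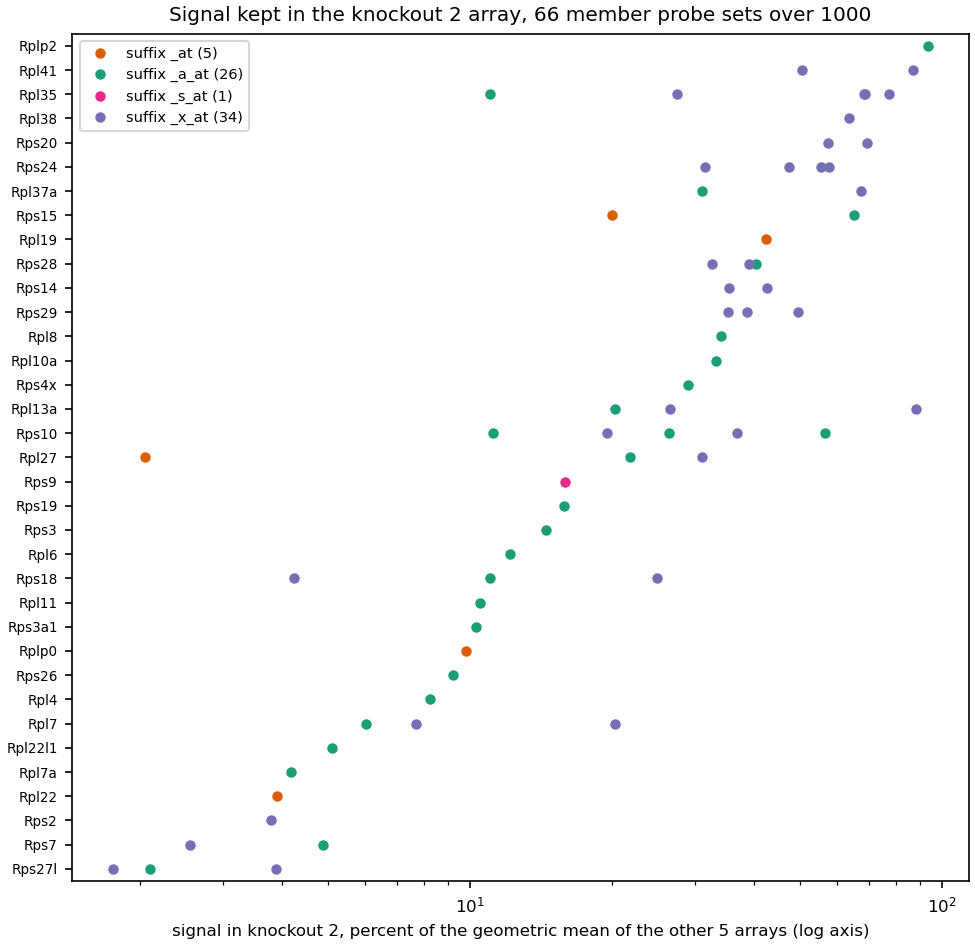
Signal in knockout 2 as percent of the geometric mean of the other 5 arrays (log axis) for the 66 members over 1000, 1 row per gene in the order of its median, coloured by suffix. Values run from 1.76% (Rps27l) to 93.4% (Rplp2), and single genes such as Rpl27 and Rpl35 span much of that range.

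One member split the arrays by litter and not by genotype. The Rps9 probe set 1434624_x_at had 121, 2413 and 2367 in wildtype 1, 2 and 3 and 134, 1271 and 2431 in knockout 1, 2 and 3. Both arrays of pair 1 were low and the other 4 were high, and the lowest of the 4 was 9.51 times the higher of pair 1 on the deposited scale. On the normalized scale it was the only 1 of 11610 tested probe sets (0.00861%), and the only 1 of 83 members, with both arrays of pair 1 over 4-fold below each of the other arrays. The other pairs had 0 such probe sets in either direction. This probe set was chosen after its values were seen.

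The other Rps9 probe sets did not show the split. The _s_at probe set had 4891, 5588 and 7068 in the wildtype and 4334, 834 and 4754 in the knockout arrays, where only knockout 2 was low. The plain one had 64.1, 70.2 and 61.1 in the wildtype and 49.5, 29.5 and 63.6 in the knockout arrays. Lens crystallins were high in wildtype 1 and not in knockout 1, and their part in this split was not tested. An _x_at probe set can read other sequences, and which sequence gave the signal was not tested.

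**Figure D5:**
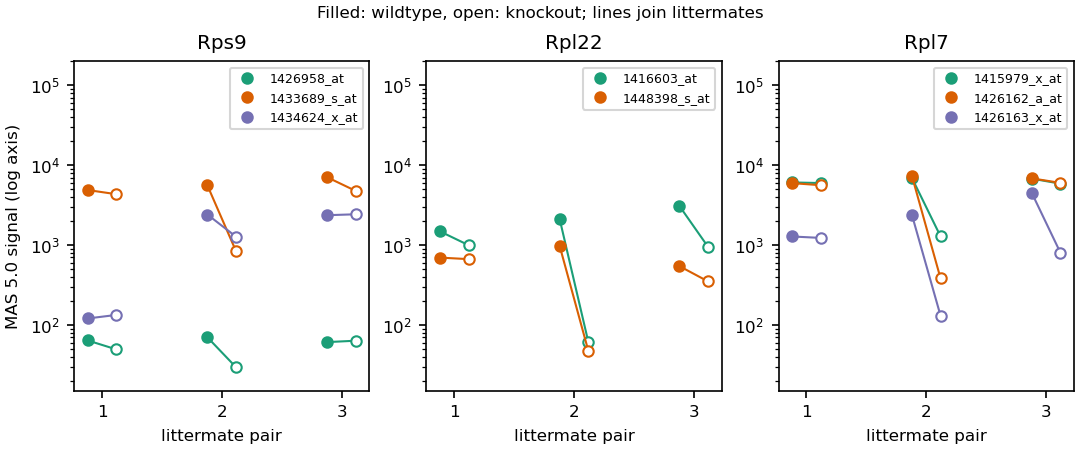
MAS 5.0 signal (log axis) of every probe set of Rps9, Rpl22 and Rpl7 in the 3 littermate pairs, filled for wildtype and open for knockout, with lines joining littermates. The Rps9 probe set 1434624_x_at is low in both mice of pair 1 (121 and 134), and a single Rpl7 probe set falls apart from the others in pair 3.

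Lists of related genes were read from the same fit, and limma called 0 of each list at an adjusted and 0 at an unadjusted p under 0.05. Genes known for pyrimidine tracts (29 probe sets of 14 genes), among them elongation factors but also Vim, an intermediate filament, Npm1, Nap1l1, Hnrnpa1 and Tpt1, had a median difference of -0.13, initiation factors (36 of 14) -0.38, ribosome assembly factors (37 of 21) 0.07 and mitochondrial ribosomal proteins (105 of 74) 0.06, against -0.11 over all. Without knockout 2 these were 0.00, 0.00, 0.02 and 0.11, against 0.00 over all. Eef1a1, which delivers aminoacyl-tRNA to the ribosome, had 10280, 11979 and 13707 in the wildtype and 9970, 1199 and 9568 in the knockout arrays. Of the 105 mitochondrial probe sets, 50, 57 and 75 were higher in the knockout in pairs 1, 2 and 3, with medians of -0.01, 0.19 and 0.20. The cytosolic members had 36, 41 and 42 of 83 higher, and all tested probe sets 5988, 5044 and 5845 of 11610.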

How the data were processed

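Retinal RNA of 6 mice was labelled with biotin and hybridised to 1 Affymetrix mouse expression array per mouse. The authors deposited, for each array, a linear intensity of every probe set from MAS 5.0, a method that removes background and mismatch signal; its scaling target and present calls are not given in the sources used here. Medians of 9.0 to 95.5 show that arrays had not been scaled to each other. Levels are given as deposited; for comparisons, log2(intensity + 1) was quantile normalized. Symbols came from the platform's annotation: 20380 of 22690 probe sets had 1 symbol, and 64 are controls. Probe sets with several symbols were left out. All 47 member genes were found in RefSeq under the same symbol.

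The comparison used limma 3.58.1 in R 4.3.3, lmFit and eBayes, on 3 against 3 arrays, over the 11610 probe sets whose signal passed the median of 3 or more of the 6 arrays, with Benjamini-Hochberg adjustment over all of them and a threshold of 0.05. The fit was tested on simulated data in which all arrays had the same spread and none had lost signal. That test therefore does not cover an array such as knockout 2. The arrays of a group are separate mice, and their number limits precision. The series design states that the same number marks littermates. After removing group means, same-numbered arrays correlated at 0.27, -0.16 and 0.13 for pairs 1, 2 and 3 over these probe sets. Wildtype and knockout arrays of unlike numbers correlated at -0.42 to 0.37, highest for wildtype 2 with knockout 1. Over the tested members, same-numbered arrays correlated at 0.64, 0.23 and 0.09, and those of unlike numbers at -0.54 to 0.32. The knockout group mean holds the array of knockout 2, which shifts the residuals of the other knockout arrays. These correlations therefore cannot show which mice were most alike. The members, lists, tests and alternatives were chosen with earlier results of these data known. Named genes were the 10 highest and 10 lowest in the wildtype arrays, the 5 with the widest probe sets, up to 5 lower and 5 higher ones ranked by p, stalk genes and paralogues; others, including those read from knockout 2 and the litter split, were chosen after their values were seen. Alternatives covered normalization, constant, filter, suffix, pairing, an intensity trend and left-out arrays. Promoters came from RefSeq, GRCm38.p6, and 41 of 47 genes matched; 300 bases were read, 250 of them before the start.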

Additional observations from a re-analysis of the deposited data

How the results depend on the processing

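The number of members called and the number of all probe sets called stayed at 0 under all 17 alternatives. These included the littermate pair as a replicate block (0 members, 0 probe sets) and the added block over pairs 1 and 3 only, and pairing changed no call. At an unadjusted limma p under 0.05, the block over pairs 1 and 3 gave 5 of 81 members and 392 of 10863 probe sets. The main fit gave 1 of 83 and 14 of 11610. The median member difference of -0.04 stood 0.08 above the median over all probe sets. It was -0.016 with no filter and -0.064 with probe sets above the median in all arrays, where the medians over all were 0.03 and 0.04, so that members turned to -0.05 and -0.10 relative to all. It was 0.50 at the 75th percentile, 0.34 with median centring and -0.85 with the signals as deposited, where the median over all probe sets was -1.38. Leaving out 1 array gave -0.090 to 0.028, and the highest value was that without knockout 2. Alternatives chosen after seeing the data gave -0.0059 with the replicate block over pairs 1 and 3, and without knockout 2 gave 0.062 at the 75th percentile and 0.12 with median centring. Pair medians moved to -0.16 (pair 1), -2.0 (pair 2) and -0.27 (pair 3) with signals as deposited. At the 75th percentile they were 1.83 in pair 2 and -0.17 in pair 3, with median centring 1.27 and -0.12, and with plain probe sets 0.78 and -0.075. The SD over genes, on average 2.97 in the wildtype arrays, was 2.94 with the highest probe set of each gene. It was 3.29 with plain probe sets, 3.40 without _x_at and _s_at, 2.55 without paralogues and 2.60 with a constant of 16. The median over the array's median, on average 5.20, was 6.23 with the highest probe set of each gene, 0.0015 with plain probe sets and 5.80 without paralogues. Plain minus suffixed, on average -6.31, was -5.15 within genes and -6.05 with a constant of 16. Leaving out 1 wildtype array gave 2.89 to 3.09, 4.93 to 5.33 and -6.40 to -6.26 for these 3 values. Apart from the arrays or probe sets an alternative leaves out, the cause of a shift was not tested. Signals near or under the array's median limit what low probe sets can show.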
